A study of Mus musculus with 20 samples.

Results

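Dendritic epidermal T cells (DETCs) were compared with hair follicle stem cells (HFSCs), sorted from the epidermis of mouse dorsal skin, over every gene with a normalized count of at least 10 in at least 3 of their 9 RNA-seq libraries. The rule kept 15548 of the 53380 genes in the table, of which 10726 reached the minimum in all 9 libraries. It did not use the difference between the populations, but 737 genes reached the minimum in DETC libraries and in no HFSC library, and 200 in HFSC libraries and in no DETC library, so these could pass only through the population in which they were high. At the edge of the rule, 696 genes reached the minimum in exactly 3 libraries (median of the mean over the 9 libraries 8.48) and 871 genes were left out with exactly 2 (median 6.64).

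The 5 DETC libraries came from cells sorted as Thy1+ with low Sca1 and no integrin α6, and the 4 HFSC libraries from CD34+ cells with integrin α6 and without Sca1. Per the labels every sample was untreated and carried Thy1.2CreERT2-Rosa26-EYFP, an inducible Cre read from the Thy1.2 promoter together with a reporter of its activity, so both populations share this background. The study's methods name wild-type C57BL/6J mice instead. The methods put the mice at 8 weeks, whereas the labels step by 1 week from sample to sample, from 8 to 11 weeks for HFSCs and from 12 weeks upward for DETCs, so by the labels age and population cannot be told apart. How many mice entered a library is not clear from the sources used here, and the p-values measure the spread between libraries, which may be technical. DETC columns numbered 1 to 3 match a label, and the other 2 carry numbers that match none and are called DETC a and DETC b. Values are given in the order HFSC 1, 2, 3, 4 and DETC 1, 2, 3, a, b.

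DETCs are γδ T cells that settle in the epidermis before birth and keep contact with keratinocytes through branched processes. Nearly all carry 1 and the same receptor, a Vγ chain and a Vδ1 chain paired with the CD3 signalling subunits, and they use it together with activating receptors shared with natural killer cells to sense damaged neighbours. HFSCs sit in the bulge, the part of the follicle below the sebaceous gland. They hold to the basement membrane through integrins and rest for long periods between hair cycles, a rest in which BMP signals and antagonists of WNT are known to take part.

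Between 7781256 and 12719398 reads per library fell on genes, of which 13.1% to 41.5% fell on the ribosomal RNA gene Rn45s. Of the variance of the log2 values, 64.2% lay on a first component that separated the 2 populations and 15.0% on the second. Replicate HFSC 4 and library DETC a stood apart. HFSC 4 had the highest share of mitochondrial reads (31.5%) and DETC a the lowest (5.59%), and limma gave them weights of 0.223 and 0.220, against 0.729 to 3.06 for the others. The summed keratin level was lowest in DETC a and the summed level of the T cell receptor genes in HFSC 4, and called values and named calls that turn on these libraries are also given without them. Xist, the RNA of the silent X chromosome, and 4 genes of the Y chromosome were both found in several libraries. Xist stood at 175, 11898, 5507 and 8.41 in HFSCs and 234, 15730, 9045, 13137 and 12744 in DETCs. The Y gene Uty stood at 289, 14.1, 162.5 and 500 in HFSCs and 1506, 15.25, 479, 1645 and 26.4 in DETCs. The balance of the sexes thus differed between libraries, and sex was not in the fit.

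The labels were checked first. Beside the normalized counts, differences are given as fitted log2 values (DETC minus HFSC, of value + 1) with their 95% interval and limma's adjusted p. Cd3e (ENSMUSG00000032093, chromosome 9 from 44998740 to 45009627, minus strand), a signalling subunit of the T cell receptor, had values of 43.9, 58.6, 75.9 and 14 in HFSCs and 4412, 4799.9, 4354, 6287 and 3435 in DETCs (log2 difference 6.77, 95% interval 5.87 to 7.67, adjusted p 1.02e-06). Cd3g, its neighbour and partner, had 56.6, 81.5, 70.6 and 23.1 in HFSCs and 5727, 6239, 6332, 5215 and 3076 in DETCs (log2 difference 6.59, 95% interval 5.81 to 7.37, adjusted p 6.27e-07). At both genes every DETC library was far above every HFSC library, and HFSC 4 was the lowest of all. HFSCs held 1.03% of the mean DETC level of Cd3e.

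Cd34 (ENSMUSG00000016494, chromosome 1 from 194938819 to 194961279, plus strand), the surface sialomucin used to sort the bulge, had 1930, 1599.8, 2622 and 2032 in HFSCs and 130.1, 105, 115, 43.9 and 106 in DETCs (log2 difference -4.41, 95% interval -5.07 to -3.74, adjusted p 2.01e-06). Lgr5, a receptor for R-spondins that marks cycling and resting follicle stem cells, had 665, 443, 545 and 572 in HFSCs and 47.9, 43.7, 45.1, 19.2 and 74.5 in DETCs (log2 difference -3.67, 95% interval -4.4 to -2.94, adjusted p 1.18e-05). The populations did not overlap at either gene, and DETC a held the least of both. DETCs kept 4.89% of the Cd34 and 8.28% of the Lgr5 mean level of HFSCs.

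The other genes of the sort are no finding and were read as a check. Thy1 had 85.4, 68.4, 57.7 and 18.2 in HFSCs and 2260.2, 1969, 2235, 2058 and 1163 in DETCs (log2 difference 5.21, 95% interval 4.33 to 6.09, adjusted p 3.87e-06). Itga6, the α6 integrin, had 4460.2, 3757, 4087 and 2005 in HFSCs and 2382, 1876, 2809, 598 and 2338 in DETCs (log2 difference -0.95, 95% interval -1.9 to 0.01, adjusted p 0.107), and Ly6a, which encodes Sca1, had 78.5, 42.4, 72.7 and 35 in HFSCs and 66.5, 34.6, 36.4, 6.86 and 38.4 in DETCs (log2 difference -0.84, 95% interval -2.05 to 0.38, adjusted p 0.254). Thy1 separated the populations, whereas at Itga6 and Ly6a the libraries overlapped and no difference was called. At the RNA level DETC libraries held 55.9% of the HFSC level of the integrin that their sort lacks. These libraries also held keratin RNA, with a summed level of 38.3% of HFSCs. How much of their Itga6 RNA came from other cells was not tested. With the replicate number as a block, Itga6 was called higher in HFSCs (-0.82, adjusted p 0.000351), as it was without HFSC 4 and DETC a, by -0.81 (adjusted p 0.00161).

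**Figure D1:**
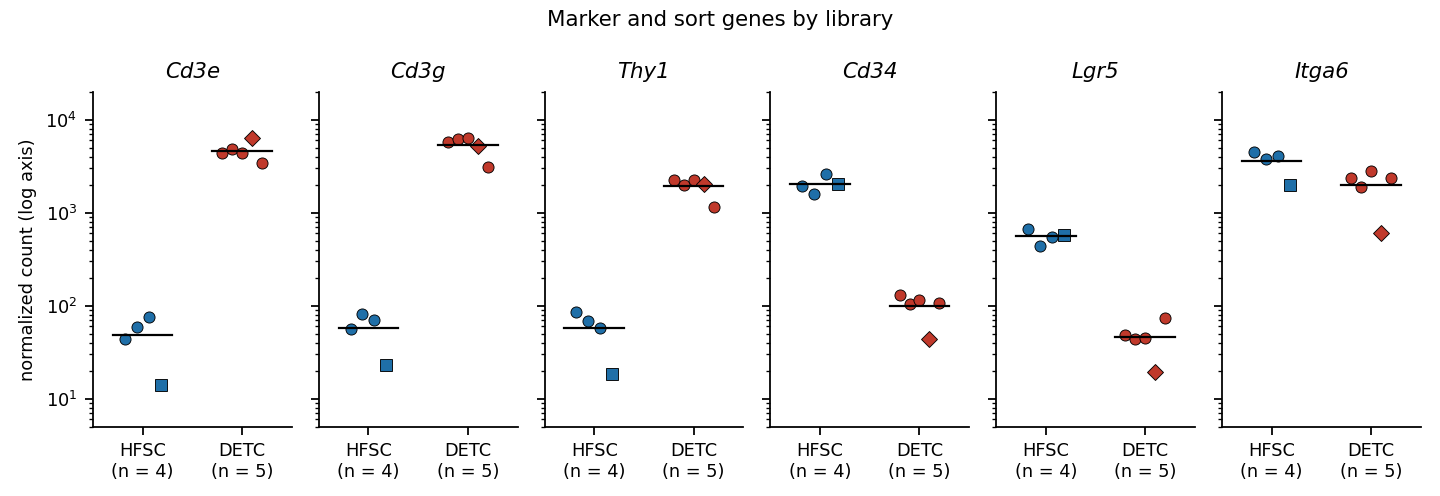
Normalized counts (log axis) of Cd3e, Cd3g, Thy1, Cd34, Lgr5 and Itga6 in each of 4 HFSC libraries (blue) and 5 DETC libraries (red), with black lines at the arithmetic means, a square for HFSC 4 and a diamond for DETC a. The populations are fully apart at the first 5 genes and overlap at Itga6, where DETC a is the lowest library at 598.

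The CD3 genes lie next to each other on chromosome 9, and the starts of Cd3g and Cd3d are 1354 bases apart and read outward on opposite strands. Their promoters are shown because Cd3e and Cd3g are the markers of the DETC libraries and Cd3d shares the stretch between the starts with Cd3g. Beside them stand those of Cd34, the marker of the HFSC sort, and of Krt24, the gene with the largest difference toward HFSCs. Each sequence is the stretch of 250 bases just before the RefSeq start (GRCm38.p6), written in the direction of the gene. Capitals mark matches on either strand to 8 short motifs, namely TGTGGT for RUNX factors, GGAAGT for ETS factors, AGATAA for factors of the GATA family, TGANTCA for AP-1, TAATTA for LIM homeodomain factors, CTTTGA for TCF/LEF, TATAAA for the box of that name near some starts, and GGGCGG for SP/KLF factors. No match shown overlaps another.
Cd3e, chr9:45009612-45009861, minus strand: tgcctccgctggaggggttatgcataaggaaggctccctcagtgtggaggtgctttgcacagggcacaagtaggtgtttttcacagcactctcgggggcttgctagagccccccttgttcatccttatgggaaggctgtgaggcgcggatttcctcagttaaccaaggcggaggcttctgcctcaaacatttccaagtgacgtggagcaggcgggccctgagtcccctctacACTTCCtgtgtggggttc
Cd3g, chr9:44980432-44980681, minus strand: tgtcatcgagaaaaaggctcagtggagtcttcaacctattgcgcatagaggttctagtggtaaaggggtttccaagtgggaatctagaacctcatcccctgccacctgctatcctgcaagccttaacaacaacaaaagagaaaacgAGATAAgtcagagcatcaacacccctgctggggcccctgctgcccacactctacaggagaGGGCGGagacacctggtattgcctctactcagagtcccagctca
Cd3d, chr9:44981536-44981785, plus strand: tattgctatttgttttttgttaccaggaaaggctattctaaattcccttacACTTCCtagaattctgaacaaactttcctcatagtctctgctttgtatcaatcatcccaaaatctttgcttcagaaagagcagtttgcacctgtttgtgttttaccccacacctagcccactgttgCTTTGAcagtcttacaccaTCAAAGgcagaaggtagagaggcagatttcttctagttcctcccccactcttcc
Cd34, chr1:194938571-194938820, plus strand: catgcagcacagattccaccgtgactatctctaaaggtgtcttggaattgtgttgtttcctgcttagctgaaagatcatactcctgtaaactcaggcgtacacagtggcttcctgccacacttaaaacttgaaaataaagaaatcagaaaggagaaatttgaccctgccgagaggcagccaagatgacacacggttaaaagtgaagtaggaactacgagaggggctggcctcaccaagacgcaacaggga
Krt24, chr11:99285263-99285512, minus strand: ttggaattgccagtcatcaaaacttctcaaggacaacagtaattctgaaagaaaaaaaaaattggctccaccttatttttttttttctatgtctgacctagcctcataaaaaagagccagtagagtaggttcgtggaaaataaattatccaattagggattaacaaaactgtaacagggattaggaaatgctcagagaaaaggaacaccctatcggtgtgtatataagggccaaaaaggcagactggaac

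In Cd3e the ETS letters lie 18 to 13 bases before the start, and in Cd3d 199 to 194 bases before it. Cd3d also holds TCF/LEF letters at 73 to 68 and at 54 to 49 bases, and Cd3g holds GATA letters at 104 to 99 and SP/KLF letters at 44 to 39 bases before the start. None of the 8 motifs was found in these windows of Cd34 and Krt24, which says only that those letters are absent there. Over 8392 tested genes with exactly 1 promoter entry, ETS letters were present in 23.8%, TCF/LEF in 10.9%, GATA in 6.21% and SP/KLF in 58.9%. The other shares were 10.7% for RUNX, 7.27% for the TATA box, 4.53% for AP-1 and 2.34% for the LIM homeodomain letters. Such matches are a description of the sequence and not evidence of binding.

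Over all genes, 3344 were higher in DETCs and 2402 higher in HFSCs at an adjusted p under 0.05, which is 37.0% of the genes tested (21.5% toward DETCs and 15.4% toward HFSCs). The libraries of the 2 populations did not overlap at 5491 genes, or 35.3%. The smallest p that an exact two-sided permutation test of the difference in means can give for 5 against 4 libraries is 0.00794. Without HFSC 4 and DETC a, 3588 and 2788 genes were called, among them 3148 and 2047 of those above. Of all calls 58.2% pointed to DETCs, but after quantile normalization, which moved the median difference over all genes to -0.17, the counts were 2751 and 3232 and the share was 46.0%.

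Among the calls the median log2 difference was 1.73 toward DETCs and -1.37 toward HFSCs, and 833 genes against 120 differed by more than 3 on the log2 scale. More than 5 was reached by 273 genes in DETCs and by 2 in HFSCs. Every HFSC library held 3 reads or fewer at 234 genes called for DETCs, and every DETC library at 8 genes called for HFSCs. Such genes could pass the minimum only through the population in which they were high, and 3 libraries are more easily reached among 5 DETC than among 4 HFSC libraries, so these counts and those of the largest differences are a description. Of 430 long intergenic noncoding RNAs tested, 88 were higher in DETCs and 19 higher in HFSCs, beside 21.5% and 15.4% of all genes. For 3995 genes, or 25.7%, the 95% interval of the log2 difference lay between -1 and 1. Because these are bulk libraries, fewer cells of a type and less RNA per cell cannot be told apart.

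**Figure D2:**
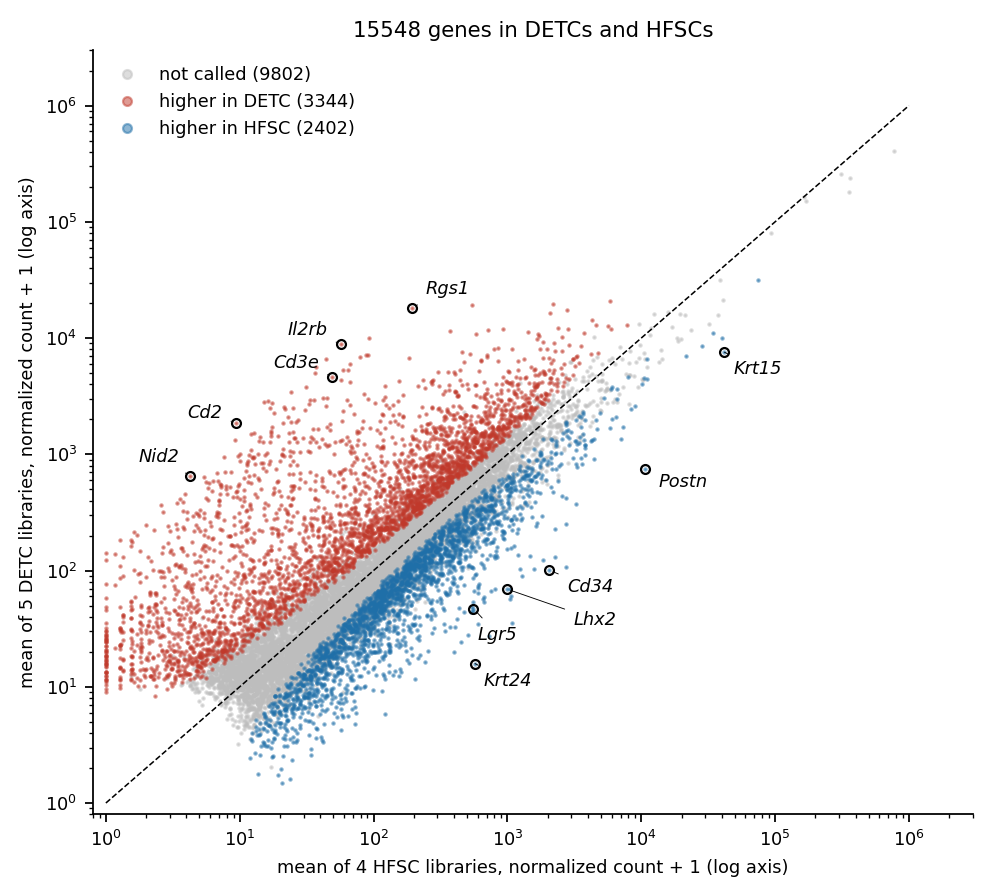
Mean normalized count + 1 over 4 HFSC libraries (x axis, log) and over 5 DETC libraries (y axis, log) for 15548 genes, red where called higher in DETCs (3344), blue where higher in HFSCs (2402) and grey where not called, with a dashed line of equal means and circles on a few named genes. The red cloud reaches far from the line at low HFSC levels, and the blue cloud stays closer to it.

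Among the 15 largest differences toward DETCs stood Cd2, an adhesion receptor that helps T cells bind their targets, the receptor genes Trdv4 and Trdc, the cytokine receptor chain Il2rb and the adaptor Grap2. Cd2 had 15, 6.52, 11.8 and 0 in HFSCs and 1538, 1554, 1515, 3174 and 1580.5 in DETCs (log2 difference 8.16, 95% interval 6.65 to 9.66, adjusted p 6.98e-06). Rgs1, a brake on chemokine receptor signals, had 241, 267, 259 and 2.8 in HFSCs and 13374, 17474, 11861, 33974 and 14465 in DETCs (log2 difference 7.56, 95% interval 5.13 to 9.99, adjusted p 0.000358). HFSC 4 lay far below the other HFSC libraries at both genes. Leaving it out made the fold difference more than 1.5 times smaller at 11 of the 15 genes, with a log2 difference of 7.28 for Cd2 and 6.04 for Rgs1, and left all 15 called. Others of this group were Sytl3 (7.79), Mest (7.55), Nid2, P2ry10 (7.26), Ripor2 (7.2), Cela1 and Arap3 (7.17). Without HFSC 4, Sytl3 stood at 6.82, Mest at 6.9, P2ry10 at 5.88 (7.85 without HFSC 3) and Arap3 at 6.53.

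Some of these are not commonly listed as T cell genes. Mest, an imprinted gene of the mesoderm, had 15, 22.8, 17.1 and 2.1 in HFSCs and 1374, 1880.3, 1028, 5990.3 and 3771 in DETCs (log2 difference 7.55, 95% interval 6.13 to 8.98, adjusted p 8.31e-06). Cela1, a pancreatic elastase in its best known setting, had 0, 2.17, 2.14 and 2.1 in HFSCs and 273, 284, 307, 620.2 and 339 in DETCs, and with at most 3 reads in every HFSC library it is given as a ratio of summed reads, 206-fold higher (counting interval 99.8 to 514) in DETCs. Nid2, or nidogen 2, is a linker of laminin and collagen IV in basement membranes and had 1.15, 6.52, 5.35 and 0 in HFSCs and 312, 489, 351, 1349 and 767 in DETCs (log2 difference 7.46, 95% interval 6.09 to 8.84, adjusted p 6.98e-06). All 5 DETC libraries were above all HFSC libraries at the 3 genes, with DETC a the highest each time.

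Toward HFSCs the 15 largest differences were at Krt24, Angptl7, Pdzrn4 (log2 difference -4.92), Col8a2 (-4.91), Chat, Il31ra, Cd34, Kcnk2 (-4.34), Grem1, Ltbp2 (-4.26), Ctgf, Dkk3, Duoxa1 (-4.03), Lhx2 and Postn. Krt24, a type I keratin, had 324, 566, 684 and 711 in HFSCs and 21.5, 22.4, 20.6, 1.37 and 8.41 in DETCs (log2 difference -5.51, 95% interval -6.9 to -4.12, adjusted p 6.36e-05). Chat, the enzyme that makes acetylcholine, had 553, 338, 427 and 708 in HFSCs and 42.1, 27.5, 46.6, 1.37 and 16.8 in DETCs (log2 difference -4.68, 95% interval -6.35 to -3.02, adjusted p 0.000727). Il31ra, a receptor chain for the itch cytokine IL-31, had 2039.7, 1142, 2523 and 5300.5 in HFSCs and 130.1, 91.5, 179, 59 and 68.5 in DETCs (log2 difference -4.59, 95% interval -5.55 to -3.63, adjusted p 1.75e-05). In each case the populations were apart, HFSC 4 held the most and DETC a the least. Leaving out DETC a made the fold more than 1.5 times smaller at 6 of the 15, with log2 differences of -4.92 for Krt24, -4.38 for Angptl7, -3.94 for Chat, -3.84 for Col8a2, -3.17 for Duoxa1 and -3.62 for Ltbp2, and all 15 were still called.

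The T cell receptor and its CD3 complex formed the clearest group. Of 17 listed genes 15 were tested, and all 15 were higher in DETCs without overlap, with a median log2 difference of 6.55 against -0.01 over all genes tested. Beside this, 21.5% of all genes were higher in DETCs and 35.3% did not overlap. Listed genes could pass the minimum through DETC libraries alone, so the count of 15 is a description. The summed level of the list was 278, 339, 329 and 183 in HFSCs and 21569, 23384, 23036, 32025 and 18195 in DETCs. Tcrg-C3 and Tcrg-V7 stayed under the minimum. Trdv4, which encodes the Vδ1 segment, had 21.9, 20.6, 19.2 and 2.1 in HFSCs and 2131, 2188, 2191, 3868 and 2076 in DETCs (log2 difference 7.51, 95% interval 6.33 to 8.68, adjusted p 2.46e-06, or 6.81 without HFSC 4), and Trdc, the constant part of the δ chain, had 21.9, 56.5, 52.4 and 11.9 in HFSCs and 3829.6, 4471, 4241, 8014 and 4714 in DETCs (log2 difference 7.3, 95% interval 6.37 to 8.23, adjusted p 8.24e-07). Tcrg-V5, the segment of the canonical DETC γ chain, had 2.31, 5.43, 8.55 and 2.1 in HFSCs and 564, 565, 549, 751 and 439.6 in DETCs (log2 difference 6.82, 95% interval 6.06 to 7.59, adjusted p 5.18e-07). HFSC 4 was the lowest library and DETC a the highest at all 3.

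Per kilobase of exon the segments ranked unevenly. Trdv4 reached 5610.1 normalized counts per kilobase in DETCs and Tcrg-V5 1682, whereas the γ segments of other waves stood at 67.5 for Tcrg-V4 and 62.9 for Tcrg-V6. Cd3g lay at 1627 and Cd3e at 1142 on the same scale. Tcrg-V6 had 0 reads in all HFSC libraries, and its level in DETCs was at least 8.86-fold higher. The constant genes of the γ locus are near copies of each other, so their counts are uncertain, and Tcrg-C2, 338-fold higher (counting interval 93.2 to 2795) in DETCs, is given with this limit.

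Signalling genes below the receptor were mostly higher in DETCs. Of 33 tested, 30 were higher in DETCs, 1 in HFSCs and 2 were not called (median 5.56), beside 21.5% and 15.4% of all genes. Here too members could pass the minimum through DETC libraries alone. Grap2, the adaptor GADS, had 15, 21.7, 28.9 and 0.7 in HFSCs and 2064, 2148, 2254, 4941 and 2510.1 in DETCs (log2 difference 7.81, 95% interval 6.25 to 9.38, adjusted p 1.25e-05, or 6.89 without HFSC 4). Every DETC library was above all HFSC libraries. The 1 member higher in HFSCs was Syk, the kinase of B cells and myeloid cells related to ZAP-70, with 90, 141, 87.7 and 118 in HFSCs and 47, 59, 38.7, 30.2 and 44.4 in DETCs (log2 difference -1.3, 95% interval -1.87 to -0.73, adjusted p 0.00279). Rasgrp1, an activator of Ras, overlapped between the populations at -0.15 (95% interval -0.89 to 0.59). Among coreceptors Cd4 stayed under the minimum, and Cd8b1 was higher in DETCs with 75.3, 30.5, 83, 41.2 and 6 against at most 2 reads in each HFSC library, 42.4-fold higher (counting interval 17.9 to 132) as a ratio of summed reads (fitted log2 difference 4.02, or 4.61 without DETC b, its lowest library). Cd6, a further surface regulator, was 71.3-fold higher (counting interval 32.5 to 195) in DETCs and also had its lowest DETC value in DETC b (fitted log2 difference 5.04, or 5.72 without that library).

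Innate-like receptors and adaptors of the natural killer kind were called in 16 of 17 cases, all toward DETCs (median 5.50). The share of all genes higher in DETCs was 21.5%. Members could pass the minimum through DETC libraries alone, so the count of 16 is a description. Klrk1, which encodes NKG2D, a receptor for stress ligands on keratinocytes, had 13.8, 11.9, 13.9 and 4.9 in HFSCs and 1218, 1518, 1316, 2220 and 1271 in DETCs (log2 difference 7.01, 95% interval 6.34 to 7.68, adjusted p 2.5e-07). Klrd1, or CD94, had 6.93, 0, 0 and 0.7 in HFSCs and 251, 212, 263, 365 and 109 in DETCs (log2 difference 6.87, 95% interval 5.54 to 8.21, adjusted p 1.04e-05), where HFSC 1 held most of the HFSC reads (7.56 without it). Cd244, the receptor 2B4, had 8.08, 21.7, 22.4 and 3.5 in HFSCs and 1028, 1069.8, 1049.9, 2287 and 910.4 in DETCs (log2 difference 6.62, 95% interval 5.56 to 7.68, adjusted p 2.8e-06), and Cd7 reached 6.41. None of these overlapped. Cd226, whose product DNAM-1 binds nectins, had 0 reads in every HFSC library and 8.41 to 31.5 in DETCs, which is at least 6.26-fold higher. The 1 member not called, Tyrobp, the adaptor DAP12, was named after its values were seen and lay at -0.1 (95% interval -2.07 to 1.86).

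Effector molecules split by detection. Of 30 listed, 18 were tested and all 18 were higher in DETCs (median 5.14), beside 21.5% of all genes. The other 12 stayed under the minimum, among them Il17a, Il22, Il4, Gzma, Ifng and the growth factors Fgf7, Fgf10 and Igf1. Members could pass the minimum through DETC libraries alone, so the count of 18 is a description. Prf1, the pore protein perforin, had 12.7, 7.6, 8.55 and 6.31 in HFSCs and 1077, 790.2, 1255, 1018 and 649 in DETCs (log2 difference 6.62, 95% interval 6.04 to 7.19, adjusted p 2.15e-07). Ctsw, a cathepsin of cytotoxic cells, had 10.4, 21.7, 9.62 and 0 in HFSCs and 1033, 910.1, 863, 1024 and 550.1 in DETCs (log2 difference 6.89, 95% interval 5.29 to 8.48, adjusted p 3.58e-05, or 5.93 without HFSC 4). Gzmc, a granzyme, had 0, 2.17, 1.07 and 1.4 in HFSCs and 149, 177, 46.6, 166 and 57.6 in DETCs, and was 95.2-fold higher (counting interval 40.5 to 294) in DETCs. These 3 were separate in every library.

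Among the cytokine genes of the same list several had no HFSC read. Il13, a type 2 cytokine, had 0 reads in all 4 HFSC libraries and 53.8, 53.9, 35.6, 56.2 and 24 in DETCs, at least 14.9-fold higher. Il2 (9.61 to 31.3 in DETCs) and Lta, or lymphotoxin α (14.4 to 46.6), were likewise without a read in HFSCs, at least 7.77-fold and 7.79-fold higher in DETCs. Ltb, the partner of Lta, was 95.8-fold higher (counting interval 37.1 to 353). Nkg7, a granule protein, had a log2 difference of 6.72 (7.32 without HFSC 1), and Srgn, the proteoglycan of granules, 6.49 (5.42 without HFSC 4). Ccl5, a chemokine, was 29.8-fold higher (counting interval 9.91 to 147), and Fgf9, a growth factor of γδ T cells in wounds, 8.76-fold higher (counting interval 3.52 to 28.1).

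Cytokine receptors and their JAK-STAT partners were higher in DETCs at 24 of 30 genes and not called at 6 (median 2.37). The share of all genes higher in DETCs was 21.5%, and members could pass the minimum through DETC libraries alone. Il2rb, the chain shared by the receptors of IL-2 and IL-15, had 78.5, 65.2, 77 and 3.5 in HFSCs and 6318, 6585, 5605, 15726 and 10103 in DETCs (log2 difference 7.8, 95% interval 6.11 to 9.48, adjusted p 2.14e-05, or 6.79 without HFSC 4). Il2rg, the common γ chain, had 11.5, 15.2, 11.8 and 0.7 in HFSCs and 568, 638, 635, 884 and 411 in DETCs (log2 difference 6.23, 95% interval 4.94 to 7.51, adjusted p 1.54e-05, or 5.47 without HFSC 4). Il10ra, a chain of the IL-10 receptor, had 18.5, 40.2, 20.3 and 2.8 in HFSCs and 701, 881, 915, 1675 and 657 in DETCs (log2 difference 5.83, 95% interval 4.56 to 7.1, adjusted p 2.23e-05, or 5.14 without HFSC 4). Every DETC library exceeded every HFSC library at the 3 chains. Il18rap, a chain of the IL-18 receptor, stood at 5.4. Il27ra and Il9r, with at most 3 reads in each HFSC library, were 27.6-fold higher (counting interval 13.2 to 69.5) and 28-fold higher (counting interval 11.8 to 87.4). The kinase Tyk2 overlapped at 0.05 (95% interval -0.47 to 0.58).

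Genes of homing, adhesion and residency were higher in DETCs in 23 of 29 cases, higher in HFSCs in 1 and not called in 5 (median 3.75). Among all genes tested, 21.5% were higher in DETCs and 15.4% in HFSCs, and members could pass the minimum through DETC libraries alone. Cxcr6, a chemokine receptor of resident lymphocytes, had 6.93, 8.69, 9.62 and 1.4 in HFSCs and 934, 966, 876, 1323 and 611 in DETCs (log2 difference 7.1, 95% interval 6.18 to 8.03, adjusted p 9.02e-07), and Itgal, the α chain of LFA-1, had 8.08, 15.2, 20.3 and 3.5 in HFSCs and 1444, 1281, 1490.2, 2234 and 1109.7 in DETCs (log2 difference 7.08, 95% interval 6.17 to 7.98, adjusted p 8.24e-07). Both were apart in every library. Ccr8, a receptor of skin T cells, had 0 to 1.09 in HFSCs and 25.2 to 109 in DETCs, and was 114-fold higher (counting interval 31.3 to 948). S1pr1, the exit receptor that resident T cells keep low, had 0 to 2.31 and 4.8 to 28.4, and was 22-fold higher (counting interval 7.27 to 109). Gpr34 reached 6.52 (5.73 without HFSC 4). P2rx7, an ATP-gated channel, went the other way with 128, 130.3, 161 and 189.9 in HFSCs and 27.4, 28.5, 33.2, 2.74 and 48 in DETCs (log2 difference -2.78, 95% interval -4.17 to -1.39, adjusted p 0.0061), and its difference was -2.14 without DETC a. Itga4 and Itgam, the α chains of VLA-4 and Mac-1, overlapped at -0.11 (95% interval -0.88 to 0.65) and -0.07 (95% interval -0.86 to 0.73).

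All 27 tested genes of the leukocyte cytoskeleton and membrane were higher in DETCs (median 4.33), beside 21.5% of all genes. Members could pass the minimum through DETC libraries alone, so the count of 27 is a description. Cd53, a tetraspanin, had 10.4, 28.2, 19.2 and 0 in HFSCs and 617, 768, 593, 1929 and 989.6 in DETCs (log2 difference 6.61, 95% interval 4.77 to 8.45, adjusted p 0.000129, or 5.55 without HFSC 4). Sash3, an adaptor of lymphocytes, had 2.31, 5.43, 0 and 0 in HFSCs and 199, 142, 175, 218 and 132 in DETCs (log2 difference 6.32, 95% interval 5.12 to 7.51, adjusted p 8.31e-06), and Laptm5, a lysosomal protein that lowers receptor levels, had 91.2, 88, 80.2 and 2.8 in HFSCs and 2246, 2081, 1978, 4419 and 2569 in DETCs (log2 difference 5.99, 95% interval 4.17 to 7.81, adjusted p 0.000247, or 4.86 without HFSC 4). Again the populations were apart. Gimap4 was 33.5-fold higher (counting interval 8.97 to 282, fitted log2 difference 2.65). Its call (adjusted p 0.04) was lost without any 1 of 7 libraries, all but DETC a and DETC b (highest adjusted p 0.0941).

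Transcription factors of the T lineage were the most divided of the T cell lists. Of 36 tested, 16 were higher in DETCs, 5 higher in HFSCs and 15 not called (median 0.58), beside 21.5% and 15.4% of all genes. Toward HFSCs the count grew to 10 with the replicate block and to 9 without HFSC 4 and DETC a. Ikzf1, or Ikaros, a factor of all lymphocytes, had 28.9, 25, 32.1 and 2.1 in HFSCs and 2049.8, 1667, 1852, 3205 and 1748 in DETCs (log2 difference 6.93, 95% interval 5.58 to 8.27, adjusted p 1e-05, or 6.11 without HFSC 4). Tox had 5.77, 15.2, 23.5 and 2.1 in HFSCs and 644, 725, 742, 1745 and 831 in DETCs (log2 difference 6.51, 95% interval 5.31 to 7.71, adjusted p 6.98e-06), and Runx3, needed for CD8 and residency programmes, had 61.2, 96.7, 80.2 and 11.2 in HFSCs and 2133, 2421, 2237, 5296 and 2579.7 in DETCs (log2 difference 5.8, 95% interval 4.59 to 7.0, adjusted p 1.63e-05, or 5.12 without HFSC 4). These 3 were apart in every library, as were Ikzf3 (5.49) and Tbx21, which encodes T-bet and was 40.5-fold higher (counting interval 20.3 to 94.4).

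Members that were higher in HFSCs included Zbtb16, Runx1, Sox13 and Maf, of which all but Runx1 are known from γδ T cells. Runx1, which is also known from follicle stem cells, had 532, 757, 560.2 and 733 in HFSCs and 274, 263, 211, 159 and 229 in DETCs (log2 difference -1.51, 95% interval -1.97 to -1.05, adjusted p 0.000237). Sox13 had 42.7, 71.7, 58.8 and 61 in HFSCs and 25.4, 25.4, 30, 9.6 and 24 in DETCs (log2 difference -1.38, 95% interval -2.15 to -0.61, adjusted p 0.0107). Both were higher in each HFSC library than in any DETC library. Zbtb16, or PLZF, differed by -1.89 and Maf by -0.83. Gata3, Rora and Bcl11b, which T cells and epidermal cells both use, were not called. Gata3 had 1496, 1772, 1845 and 1314 in HFSCs and 1304, 1797, 1542, 1073 and 1842 in DETCs (log2 difference -0.1, 95% interval -0.56 to 0.35), Rora differed by 0.03 (95% interval -0.44 to 0.51) and Bcl11b by 0.33 (95% interval -0.02 to 0.69), and the intervals exclude a 2-fold difference in either direction.

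In follicle stem cells the corresponding list of transcription factors gave 18 of 25 tested genes higher in HFSCs, none higher in DETCs and 7 not called (median -1.49). The share of all genes higher in HFSCs was 15.4%. Lhx2, a LIM homeodomain factor that keeps the bulge, had 757, 1113, 1072 and 1001 in HFSCs and 79.2, 64.1, 83.8, 16.5 and 98.5 in DETCs (log2 difference -4.03, 95% interval -5.01 to -3.05, adjusted p 5.03e-05). Tbx1 had 568, 1011, 471 and 633 in HFSCs and 49.9, 109, 52.2, 27.4 and 50.4 in DETCs (log2 difference -3.59, 95% interval -4.38 to -2.8, adjusted p 2.35e-05), Lmx1b 69.3, 80.4, 79.1 and 60.3 in HFSCs and 3.91, 14.2, 12.7, 6.86 and 6 in DETCs (log2 difference -3.03, 95% interval -3.86 to -2.2, adjusted p 0.00012). Populations were apart at all of these, with DETC a or DETC 1 the lowest. Gli2, a factor of hedgehog signalling, differed by -2.61. Foxp1 and Hopx overlapped at -0.36 (95% interval -0.89 to 0.16) and -0.11 (95% interval -0.72 to 0.5), and with the replicate block both were called higher in HFSCs (Foxp1 -0.76, adjusted p 0.000319, Hopx -0.6, adjusted p 0.00311). Without HFSC 4 and DETC a they were also called, Foxp1 at -0.6 (adjusted p 0.026) and Hopx at -0.49 (adjusted p 0.047). Summed over the list, DETCs held 32.6% of the HFSC level.

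Surface and secreted genes of the bulge were higher in HFSCs at 29 of 38 genes tested, higher in DETCs at 2 and not called at 7 (median -2.20). The shares of all genes were 15.4% toward HFSCs and 21.5% toward DETCs. Angptl7, a secreted angiopoietin-like protein, had 601, 288, 1901 and 1529 in HFSCs and 34.2, 23.4, 71.2, 2.74 and 42 in DETCs (log2 difference -5.07, 95% interval -6.86 to -3.28, adjusted p 0.000698). Postn, or periostin, a secreted matrix protein, had 8996, 5962, 12204 and 15338 in HFSCs and 903, 682, 1012, 154 and 957 in DETCs (log2 difference -4.01, 95% interval -5.17 to -2.85, adjusted p 0.000172). Ctgf, a matricellular target of YAP, had 3261, 936, 2902 and 1943 in HFSCs and 210.4, 92.5, 145, 24.7 and 183 in DETCs (log2 difference -4.26, 95% interval -5.56 to -2.96, adjusted p 0.000249). Angptl7 and Ctgf varied between HFSC libraries, with the lowest values in HFSC 2, and still stood above all DETC libraries. The 2 members that went against the list were Lrig1, a brake on EGF receptors, with 1074, 1371, 1098 and 664 in HFSCs and 1742, 1801, 1996, 2306 and 1549 in DETCs (log2 difference 0.87, 95% interval 0.38 to 1.36, adjusted p 0.0115), and Ptch1, the hedgehog receptor, with 195, 232, 275 and 469 in HFSCs and 421, 508, 565, 777 and 489 in DETCs (log2 difference 0.96, 95% interval 0.37 to 1.56, adjusted p 0.0173). At Ptch1 HFSC 4 lay within the DETC range, and the call was lost without HFSC 1 (adjusted p 0.0586). Neither was called after quantile normalization.

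Of 19 keratins tested, 4 were higher in HFSCs and 15 were not called (median -1.22), beside 15.4% of all genes higher in HFSCs, and 7 more stayed under the minimum. With the replicate block 17 were called higher in HFSCs, and without HFSC 4 and DETC a 11 were. Krt15, a keratin of the bulge and the basal layer, had 50076, 44723, 50366 and 22299 in HFSCs and 10762, 7272, 10834, 1969 and 6950.2 in DETCs (log2 difference -2.61, 95% interval -3.72 to -1.51, adjusted p 0.00223), and the populations did not overlap. Krt5, the basal type II keratin, had 39645, 37535, 43698 and 16239 in HFSCs and 16494, 10499, 13617, 3248 and 11818 in DETCs (log2 difference -1.71, 95% interval -2.79 to -0.63, adjusted p 0.0194). Here HFSC 4 lay below DETC 1, and the call was lost without HFSC 1 or HFSC 3 (highest adjusted p 0.0553) and after quantile normalization. Krt6a, a keratin of the companion layer and of wounds, had 2216, 2161, 1926 and 316 in HFSCs and 350.3, 289.8, 183, 83.7 and 369 in DETCs (log2 difference -2.53, 95% interval -3.88 to -1.18, adjusted p 0.00839, or -3.21 without HFSC 4).

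Keratin RNA was also found in DETC libraries. The summed keratin level was 198870, 170780, 204010 and 91510 in HFSCs and 87527, 62195, 75179, 16626 and 76808 in DETCs, and DETCs kept 38.3% of the HFSC mean. Krt14, chosen after its values were seen, had 29855, 26882, 28025 and 9872 in HFSCs and 16495, 11383, 12940, 3319 and 14562 in DETCs (log2 difference -1.07, 95% interval -2.19 to 0.05, adjusted p 0.119). It was called higher in HFSCs with the block (-1.07, adjusted p 6.99e-05), without HFSC 4 (-1.45, adjusted p 0.033) and without HFSC 4 and DETC a (-1.04, adjusted p 0.000409). DETC a held the least of Krt14 and of the sum, and HFSC 4 the least among HFSCs. How much of the keratin RNA in DETC libraries came from other cells was not tested.

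Genes of the hemidesmosome, integrins and basement membrane were higher in HFSCs at 24 of 40, higher in DETCs at 4 and not called at 12 (median -1.35). Among all genes tested, 15.4% were higher in HFSCs and 21.5% in DETCs. Col17a1, the transmembrane collagen of hemidesmosomes, had 30290, 32268, 34333 and 17749 in HFSCs and 9334, 8545, 12043, 2401 and 10229 in DETCs (log2 difference -1.89, 95% interval -2.9 to -0.88, adjusted p 0.0084). Col18a1 had 1981, 4689, 2025 and 1446 in HFSCs and 403, 513, 414, 209 and 651 in DETCs (log2 difference -2.47, 95% interval -3.31 to -1.64, adjusted p 0.00052), and Itgb6, part of an integrin that activates TGF-β, 135, 518, 216 and 519.9 in HFSCs and 56.8, 93.6, 62.5, 17.8 and 80.5 in DETCs (log2 difference -2.43, 95% interval -3.59 to -1.27, adjusted p 0.00471). At all 3 genes the populations were apart and DETC a was the lowest library. Col4a4 and Col4a3, collagen IV chains read from a shared promoter region, differed by -2.64 and -2.2.

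Against this list went Nid2, described above, Itgav, Lama2 and Itga9. Itgav, the αv integrin chain, had 1219, 1059, 1148 and 921 in HFSCs and 2474, 3055, 2445, 8079.9 and 4893 in DETCs (log2 difference 1.79, 95% interval 1.04 to 2.53, adjusted p 0.00207), and all DETC libraries were higher. Lama2, the laminin α2 chain, had 43.9, 13, 40.6 and 2.1 in HFSCs and 114, 171, 151, 63.1 and 42 in DETCs (log2 difference 2.51, 95% interval 0.87 to 4.16, adjusted p 0.0228). The call of Lama2 was lost without HFSC 2 or DETC 2 (highest adjusted p 0.0538) and its difference was 1.7 without HFSC 4. Itga9 (1.3, adjusted p 0.0427) lost its call without any 1 of 8 libraries, all but DETC b. Plec, Itgb1 and Lamc1 overlapped, at -0.29 (95% interval -0.88 to 0.3), -0.11 (95% interval -0.52 to 0.31) and 0.17 (95% interval -0.31 to 0.66), and none of the 3 intervals reaches a 2-fold difference. Without HFSC 4 and DETC a, Itgb1 was called higher in HFSCs at -0.32 (adjusted p 0.0446).

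Desmosomes and adherens junctions gave 7 calls toward HFSCs, 2 toward DETCs and 13 not called among 22 (median -0.99). That is 40.9% called, near the 37.0% over all genes. The count toward HFSCs was 19 with the replicate block, 15 without HFSC 4 and DETC a, and 3 to 10 with any 1 library left out. Afdn, or afadin, had 6611, 8457, 7864 and 10527 in HFSCs and 2455, 2919, 3031, 1461 and 2428 in DETCs (log2 difference -1.79, 95% interval -2.34 to -1.24, adjusted p 0.000277). Dsg3, a desmosomal cadherin, had 2655, 2444, 2462 and 1651 in HFSCs and 691, 866, 902, 252.5 and 993 in DETCs (log2 difference -1.76, 95% interval -2.57 to -0.94, adjusted p 0.00401). The call of Perp (-1.42, adjusted p 0.0249) was lost without HFSC 1, HFSC 2 or HFSC 3. Toward DETCs were Pkp4 (1.45, adjusted p 0.00556), a catenin of the p120 group, and Pkp2 (1.22, adjusted p 0.0154), which was not called with the block (adjusted p 0.0736). Cdh1, the E-cadherin gene through which DETCs are known to hold to keratinocytes, had 5172, 5764, 5657 and 2293 in HFSCs and 4121, 4399, 4724, 2419 and 5545 in DETCs (log2 difference -0.12, 95% interval -0.84 to 0.61). It was not called, nor was Ctnnb1 (log2 difference -0.1, 95% interval -0.58 to 0.38), but the block called both toward HFSCs, Cdh1 by -0.33 (adjusted p 0.0171) and Ctnnb1 by -0.38 (adjusted p 0.00802). Without HFSC 4 and DETC a, Ctnnb1 was called at -0.38 (adjusted p 0.0142).

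Factors of the epithelial lineage followed with 10 of 23 higher in HFSCs and 13 not called (median -1.02), or 21 with the block and 17 without HFSC 4 and DETC a. Over all genes 15.4% were higher in HFSCs. Tfap2b had 983, 704, 989.9 and 1282 in HFSCs and 213, 122, 229, 67.2 and 133 in DETCs (log2 difference -2.78, 95% interval -3.53 to -2.03, adjusted p 0.000105), and Hoxc13, a factor of hair keratin genes, 30, 68.4, 52.4 and 89 in HFSCs and 4.89, 15.2, 9.49, 4.12 and 9.61 in DETCs (log2 difference -2.68, 95% interval -3.65 to -1.7, adjusted p 0.000867). Grhl2, a keeper of epithelial junctions, differed by -1.96 (adjusted p 0.00188). These were apart in every library. Klf4, a factor of the skin barrier, overlapped at -0.06 (95% interval -0.83 to 0.71), with HFSC 4 at 1838 and the other HFSC libraries at 5893 to 6317, and the block called it higher in HFSCs (-0.46, adjusted p 0.00335). So did the fits without HFSC 4 (-0.49, adjusted p 0.027) and without both HFSC 4 and DETC a, the latter at -0.52 (adjusted p 0.00527).

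**Figure D3:**
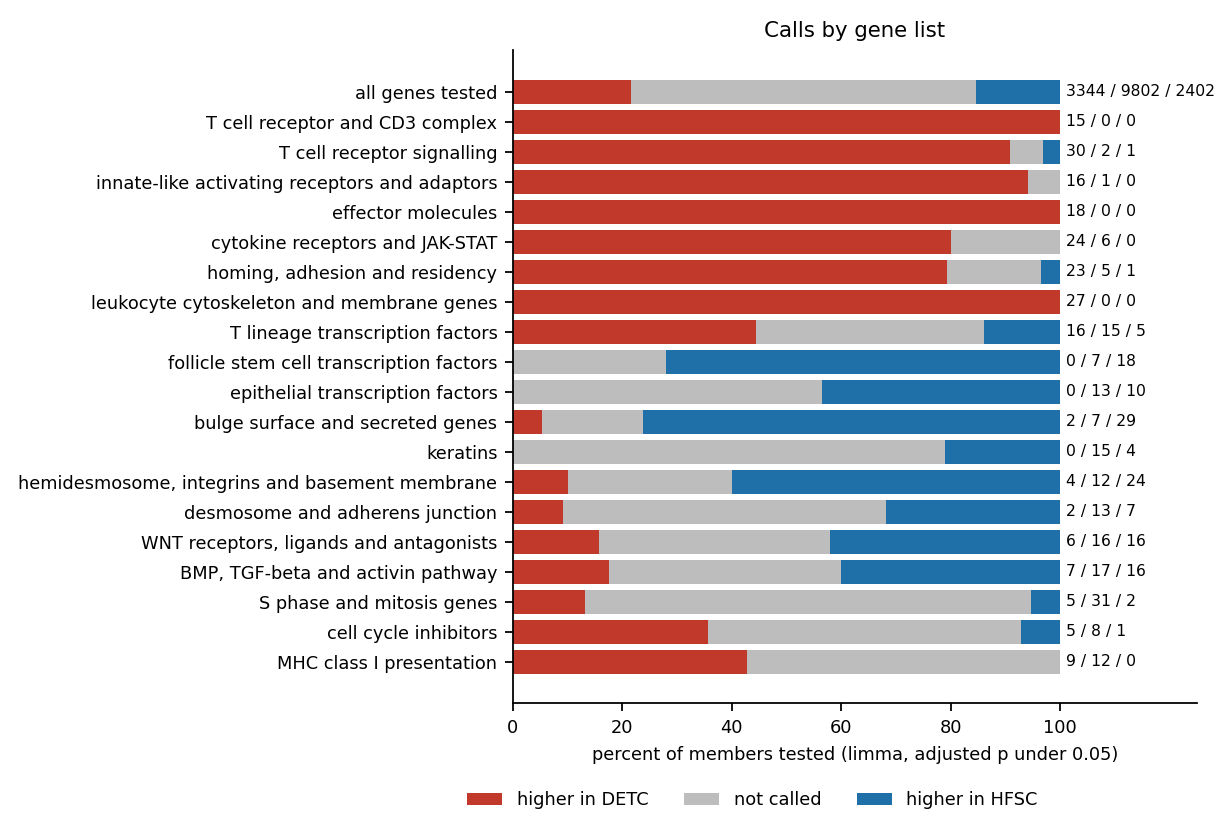
Share of the tested members of each gene list (x axis, percent) that were higher in DETCs (red), not called (grey) or higher in HFSCs (blue), with the counts beside each bar in that order and all 15548 genes in the top bar. Red fills the receptor, signalling, effector and leukocyte lists, blue leads in the bulge, follicle factor and hemidesmosome lists, and the keratin, S phase and MHC class I lists are mostly grey.

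WNT signals reach cells through FZD receptors with LRP coreceptors and are tuned by secreted antagonists and by R-spondin receptors. Of 38 members tested, 16 were higher in HFSCs, 6 higher in DETCs and 16 not called (median -0.87), beside 15.4% and 21.5% of all genes. Among the antagonists, Dkk3 had 674, 1147, 1171 and 1249 in HFSCs and 55.8, 92.5, 80.6, 20.6 and 48 in DETCs (log2 difference -4.26, 95% interval -5.12 to -3.39, adjusted p 1.44e-05) and Sfrp1 had 882, 4050, 1253 and 1176 in HFSCs and 74.4, 257, 98, 61.7 and 122 in DETCs (log2 difference -3.81, 95% interval -4.88 to -2.73, adjusted p 0.000144). Both were higher in every HFSC library, with HFSC 2 far above the rest at Sfrp1. Of the receptors, Fzd2 had 289.7, 589, 435 and 298 in HFSCs and 25.4, 57, 43.5, 4.12 and 28.8 in DETCs (log2 difference -3.93, 95% interval -5.26 to -2.6, adjusted p 0.000526), and Fzd9 40.4, 42.4, 38.5 and 11.9 in HFSCs and 0.98, 4.07, 1.58, 0 and 1.2 in DETCs (log2 difference -3.78, 95% interval -5.05 to -2.52, adjusted p 0.000485).

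DETCs held other members of the pathway. Axin2, a feedback target of WNT signals in many tissues, had 365, 257, 403 and 536 in HFSCs and 1748, 1820.3, 1572, 3095 and 1898 in DETCs (log2 difference 2.38, 95% interval 1.82 to 2.94, adjusted p 3.99e-05). The ligand Wnt10b had 26.6, 23.9, 34.2 and 9.11 in HFSCs and 126.2, 173, 142, 218 and 86.5 in DETCs (log2 difference 2.69, 95% interval 1.83 to 3.55, adjusted p 0.000338), and the receptor Fzd4 33.5, 28.2, 25.7 and 42 in HFSCs and 109, 112, 119, 294 and 165 in DETCs (log2 difference 2.18, 95% interval 1.48 to 2.88, adjusted p 0.000368). All DETC libraries were above all HFSC libraries at each, and DETC a was the highest. Fzd5 (1.58, adjusted p 0.00776) and Rnf43, a ligase that removes FZD receptors (1.5, adjusted p 0.000959), were also higher in DETCs. Znrf3, its relative, was called at 0.51 (adjusted p 0.0456) but lost the call without any 1 of the 9 libraries (highest adjusted p 0.0996).

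Genes of the BMP, TGF-β and activin pathway were called in both directions. Of 40 genes tested, 16 were higher in HFSCs, 7 higher in DETCs and 17 not called (median -0.53). Over all genes 15.4% were higher in HFSCs and 21.5% in DETCs, so the count toward DETCs does not exceed that share. Among the largest differences toward HFSCs were BMP antagonists. Grem1, or gremlin, had 905, 882, 1274 and 1139 in HFSCs and 43, 66.1, 74.3, 20.6 and 76.9 in DETCs (log2 difference -4.32, 95% interval -5.12 to -3.53, adjusted p 6.73e-06), and Nog, or noggin, 158, 135, 145 and 119 in HFSCs and 17.6, 12.2, 14.2, 0 and 14.4 in DETCs (log2 difference -3.96, 95% interval -5.63 to -2.29, adjusted p 0.00221, or -3.17 without DETC a). Of the BMP signal transducers, Smad9 had 115, 66.2, 99.4 and 111 in HFSCs and 11.7, 4.07, 6.32, 6.86 and 13.2 in DETCs (log2 difference -3.46, 95% interval -4.27 to -2.65, adjusted p 3.77e-05), and the inhibitor Smad6 had 62.3, 61.9, 58.8 and 39.9 in HFSCs and 1.96, 10.2, 11.1, 2.74 and 1.2 in DETCs (log2 difference -3.47, 95% interval -4.68 to -2.26, adjusted p 0.000655). No DETC library reached the HFSC range at these 4 genes.

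Toward DETCs stood genes of TGF-β signalling. The ligand Tgfb1 had 165, 327, 234 and 59.6 in HFSCs and 1016, 1289.5, 899, 2246 and 1402 in DETCs (log2 difference 2.96, 95% interval 1.98 to 3.94, adjusted p 0.000438). Its receptor Tgfbr2 had 538, 475, 455 and 243 in HFSCs and 2298, 2404, 2312, 5137 and 3629 in DETCs (log2 difference 2.86, 95% interval 2.19 to 3.54, adjusted p 4.04e-05), and the transducer Smad3 had 207, 173, 196 and 96 in HFSCs and 1139.9, 1001, 1189.8, 1690.4 and 968 in DETCs (log2 difference 2.86, 95% interval 2.29 to 3.42, adjusted p 1.18e-05). Ligand, receptor and transducer were thus each higher in every DETC library than in any HFSC library. The inhibitors Smad7 (2.61, adjusted p 0.000241) and Bambi (1.81, adjusted p 0.00985) were higher as well. Acvr2a (0.62, adjusted p 0.0217) lost its call without HFSC 2 and after quantile normalization, and Inhba (0.72, adjusted p 0.0298) without any 1 of 6 libraries, all but HFSC 4, DETC 3 and DETC a, and with the replicate block (adjusted p 0.0679). Bmpr2, Tgfbr3 and Smad4, the last shared by all branches, were not called, at 0.17 (95% interval -0.22 to 0.56), 0.28 (95% interval -0.18 to 0.74) and 0.51 (95% interval 0.06 to 0.97).

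**Figure D4:**
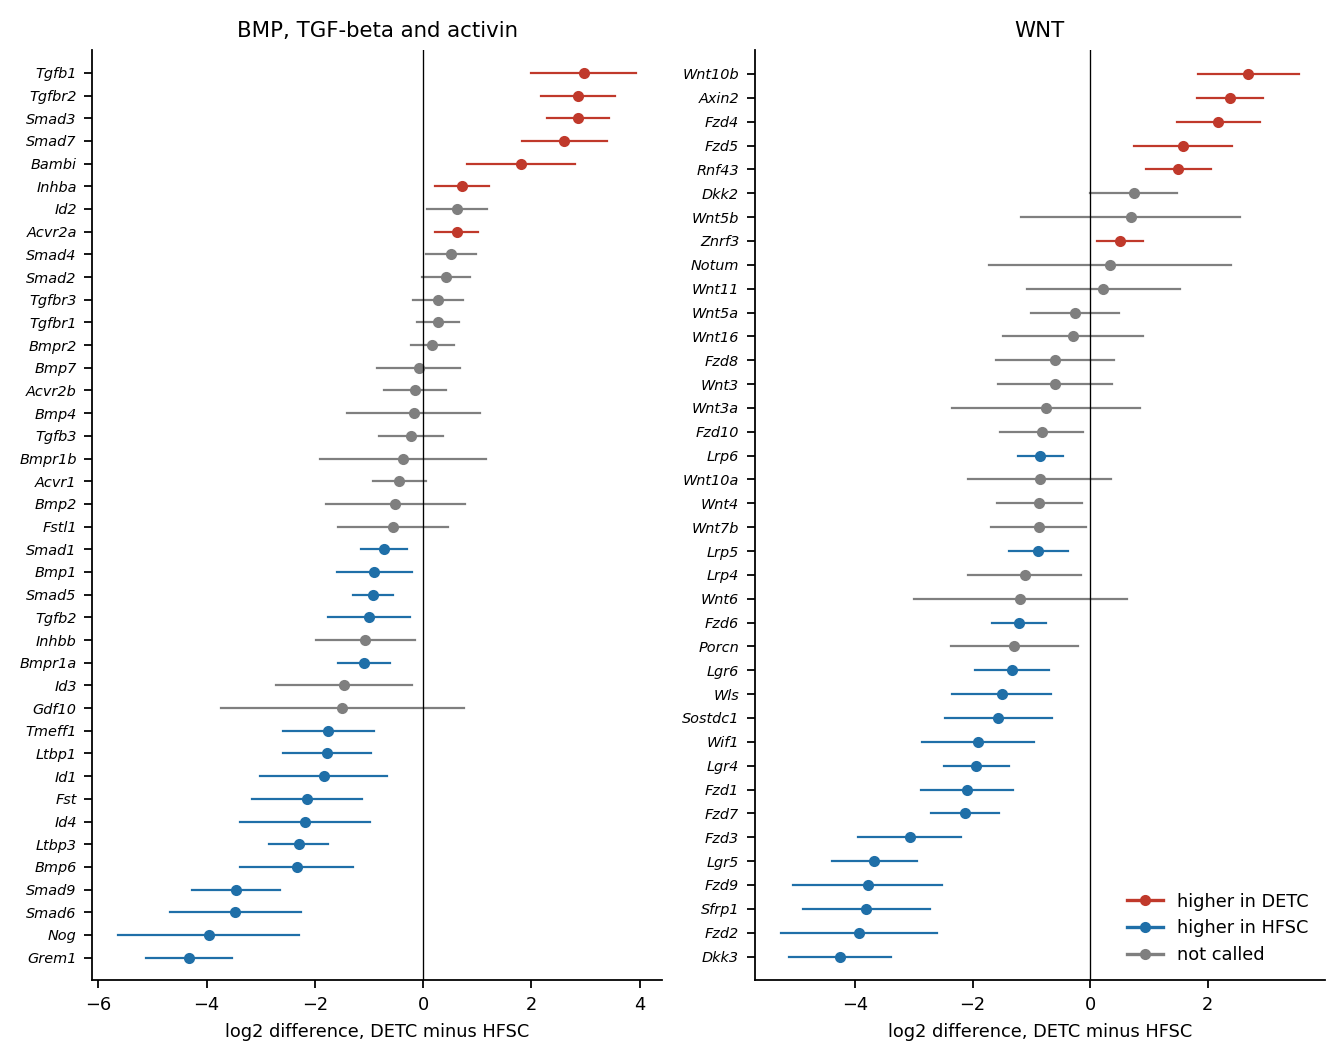
Log2 difference (DETC minus HFSC, x axis) with its 95% interval for each tested member of the BMP, TGF-beta and activin list (left) and of the WNT list (right), red where called higher in DETCs, blue where higher in HFSCs and grey where not called. Tgfb1, Tgfbr2, Smad3 and Smad7 sit at the top of the left panel near 3, and Grem1, Nog, Smad6 and Smad9 at its foot below -3.

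Of 38 genes of S phase and mitosis tested, 5 were higher in DETCs, 2 higher in HFSCs and 31 not called (median -0.10), beside the 37.0% called over all genes. Mki67, the proliferation antigen Ki-67, had 825, 941, 897 and 959 in HFSCs and 973, 1343, 972, 1227 and 1632 in DETCs (log2 difference 0.41, 95% interval -0.003 to 0.83, adjusted p 0.107). Top2a, a topoisomerase of dividing cells, differed by 0.16 (95% interval -0.26 to 0.59) and Mcm6, a subunit of the replicative helicase, by -0.26 (95% interval -0.66 to 0.14). Rrm1, a subunit of ribonucleotide reductase, stood out with 309, 286, 310 and 238 in HFSCs and 1161, 1306, 2108, 2219 and 1052 in DETCs (log2 difference 2.39, 95% interval 1.84 to 2.94, adjusted p 3.39e-05), and every DETC library was higher. Its partner Rrm2 was higher in HFSCs (-0.91, adjusted p 0.0424), as was Tyms (-0.86, adjusted p 0.0496). Both of these calls were lost without any 1 of 7 libraries, for Rrm2 all but HFSC 4 and DETC 2 and for Tyms all but HFSC 2 and DETC 3, and that of Tyms also with the block (adjusted p 0.0923).

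Among cell cycle inhibitors 5 of 14 were higher in DETCs, 1 in HFSCs and 8 not called (median 0.71). The share called, 42.9%, was near the 37.0% over all genes. Btg1, an antiproliferative factor abundant in resting lymphocytes, had 2722, 3075, 2518 and 813 in HFSCs and 6076, 8165, 5814, 11772 and 7166 in DETCs (log2 difference 1.89, 95% interval 1.04 to 2.74, adjusted p 0.00335). Rb1, the retinoblastoma gene, had 309, 289, 319.6 and 383 in HFSCs and 737, 957, 769, 1681 and 841 in DETCs (log2 difference 1.55, 95% interval 1.01 to 2.09, adjusted p 0.000641), and its relative Rbl2 differed by 1.32 (adjusted p 0.00111). DETC libraries exceeded all HFSC libraries at the 3 genes. Cdkn2b, the 1 member toward HFSCs (-1.34, adjusted p 0.0431), lost its call without any 1 of 6 libraries, all but HFSC 4, DETC 3 and DETC b, and Rbl1 and Cdkn2c were not called, at -0.41 (95% interval -0.9 to 0.09) and 0.48 (95% interval -0.04 to 1.0).

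Presentation on MHC class I gave 9 of 21 genes higher in DETCs, none higher in HFSCs and 12 not called (median 0.74), or 13 higher in DETCs with the block. Over all genes 21.5% were higher in DETCs. Tapbpl, a peptide editor related to tapasin, had 90, 69.5, 88.7 and 40.6 in HFSCs and 428, 386, 317, 559.8 and 353 in DETCs (log2 difference 2.52, 95% interval 1.93 to 3.11, adjusted p 3.77e-05). H2-D1, a classical heavy chain, had 1733, 1468, 1876 and 1263 in HFSCs and 3742, 3249, 3308, 4554 and 3090.2 in DETCs (log2 difference 1.18, 95% interval 0.75 to 1.61, adjusted p 0.000809). Calr, the chaperone calreticulin, had 3184, 3491, 2394 and 1246 in HFSCs and 5168, 6618, 4663, 13232 and 9326 in DETCs (log2 difference 1.59, 95% interval 0.75 to 2.43, adjusted p 0.00786). The 3 genes were higher in all DETC libraries. Reads of the heavy chain genes can be shared between near copies, so H2-D1 is uncertain. Tap1, the peptide transporter, differed by 0.1 (95% interval -0.44 to 0.63), Psme1 by 0.31 (95% interval -0.19 to 0.81) and Nlrc5, the activator of class I genes, by 0.11 (95% interval -0.39 to 0.62), and the block called Nlrc5 higher in DETCs (0.41, adjusted p 0.0239).

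The lists of other cell types were read for every library. Calls in them stand beside 21.5% of all genes higher in DETCs and 15.4% higher in HFSCs. RNA of keratinocytes of the upper layers was found in both populations. The summed level of 11 suprabasal genes was 30103 to 62795 in HFSCs and 5899.8 to 38375 in DETCs (DETCs 53.8% of HFSCs), and none of the 11 was called. With the block 10 were called higher in HFSCs, and 5 without HFSC 4 and DETC a. The 11 genes of the interfollicular epidermis and upper follicle gave 1 call toward DETCs, Lrig1, and 2 toward HFSCs, Col17a1 and Krt5, or 8 toward HFSCs with the block. Of 9 sebaceous genes tested none was called, and their sum ran from 183.8 in DETC a to 5542 in HFSC 1.

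Langerhans cells, the dendritic cells of the epidermis, share its basal layers with DETCs. The summed level of 13 myeloid genes was 2545, 5288, 3718 and 90.4 in HFSCs and 2310.1, 3394, 2222, 1229 and 2749 in DETCs. HFSC 4 was nearly without them and DETC a was the lowest DETC library. Cd207, the langerin gene, chosen after its values were seen, had 424, 958, 554 and 1.4 in HFSCs and 329, 569, 338, 177 and 444 in DETCs (log2 difference 1.19, 95% interval -1.99 to 4.36). Its difference turned without HFSC 4 (-0.81, adjusted p 0.108), and the block called it higher in HFSCs (-0.61, adjusted p 0.00691). Of 8 members tested, 1 was called, Cd68, toward DETCs (1.59, adjusted p 0.0303). That call was lost without HFSC 1, DETC a or DETC b and with the block (adjusted p 0.0998), while the block called 4 members toward HFSCs.

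The remaining lists held few tested genes. Of 10 melanocyte genes 4 were under the minimum, Mitf and Pmel were higher in HFSCs and Kit in DETCs. Mitf had 720.3, 453, 754 and 762 in HFSCs and 114, 137, 132, 60.4 and 75.7 in DETCs (log2 difference -2.72, 95% interval -3.35 to -2.1, adjusted p 3.35e-05), and Kit, the stem cell factor receptor, 26.6, 17.4, 40.6 and 34.3 in HFSCs and 136, 85.4, 65.6, 192 and 94.9 in DETCs (log2 difference 1.88, 95% interval 1.09 to 2.66, adjusted p 0.00211). Both were apart in every library. Pmel (-1.2, adjusted p 0.0468) lost its call without any 1 of 7 libraries, all but HFSC 4 and DETC a. None of 3 tested genes of Schwann and Merkel cells was called. The defining genes of mast cells and red cells stayed under the minimum in all cases, and Mcpt4, Tpsb2 and Cpa3 had no read in any library. Endothelial genes were low, with sums of 49.2 to 96 in HFSCs and 97.2 to 159.7 in DETCs. Of 7 tested, 4 were not called, and Cdh5 (3.16 to 13.2 in DETCs, at most 1 read in an HFSC library), Kdr (2.41, adjusted p 0.00446) and Tie1 (4.12 to 19.2 in DETCs, at most 3 reads) were higher in DETCs.

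Of 9 dermal fibroblast genes 6 were tested, 3 were higher in DETCs and 3 were not called, beside 21.5% of all genes higher in DETCs. Pdgfrb had 4.62, 17.4, 5.35 and 0 in HFSCs and 47, 71.2, 55.3, 68.6 and 72.1 in DETCs (log2 difference 3.64, 95% interval 2.16 to 5.11, adjusted p 0.00176, or 2.86 without HFSC 4 and 4.26 without HFSC 2). The calls of Col3a1 (2.39, adjusted p 0.0378, or 1.47 without HFSC 4 and 3.11 without HFSC 2) and Pdgfra (1.36, adjusted p 0.0479) were lost without any 1 of 7 libraries each, for Col3a1 all but HFSC 2 and DETC 1 and for Pdgfra all but HFSC 1 and DETC a. Ighm, the heavy chain of immunoglobulin M, had 6.93, 14.1, 19.2 and 1.4 in HFSCs and 337, 282, 299, 519 and 227 in DETCs (log2 difference 5.2, 95% interval 4.0 to 6.39, adjusted p 3.39e-05, or 4.58 without HFSC 4). DETC libraries were all higher at both Pdgfrb and Ighm, while the other 5 B cell genes, among them Cd79a, stayed under the minimum. The part of any of these cells in the differences above was not tested.

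**Figure D5:**
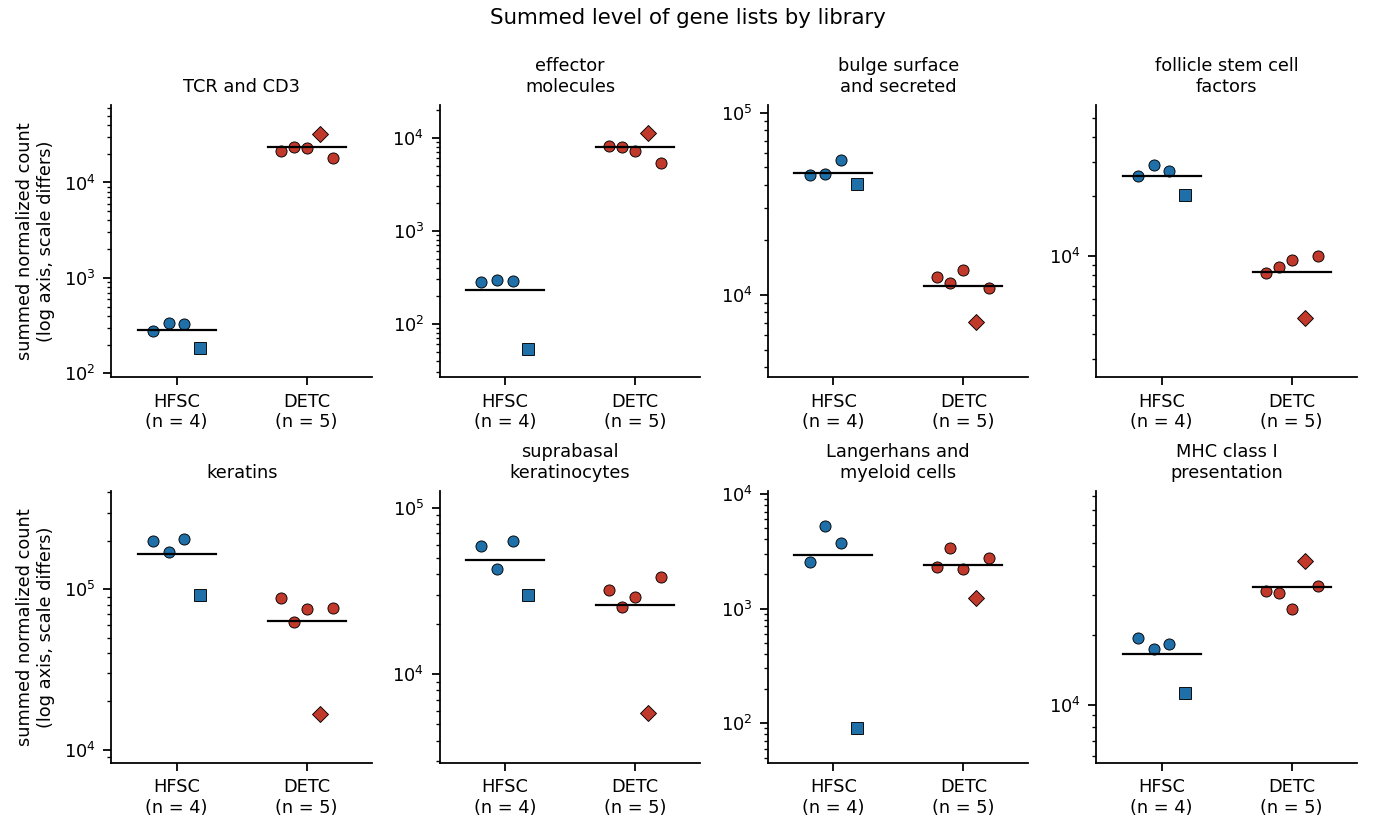
Summed normalized counts (log axes, scales differ) of gene lists in each of 4 HFSC libraries (blue) and 5 DETC libraries (red), with black lines at the means, a square for HFSC 4 and a diamond for DETC a. The receptor and effector sums of every DETC library lie far above those of every HFSC library, keratin sums are lower in DETCs but large, and the myeloid sum of HFSC 4 (90.4) lies far below every other library.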

How the data were processed

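RNA-seq libraries of sorted mouse epidermal cells were read from 1 table. Per the study's methods and the submitters' processing notes, the authors aligned reads with STAR to mm10, counted them per gene with featureCounts and divided the counts by DESeq2 size factors, so the deposited values are a normalized signal, not raw counts. Versions of STAR and featureCounts and whether counting used strand are not given in the sources used here. Library kits differed between samples. Every value was a whole number of reads (tolerance 0.006 reads) once multiplied back, so depth could be recovered.

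Genes that reached a value of 10 in 3 or more of the 9 libraries were tested with limma 3.58.1 (R 4.3.3, moderated test with an intensity trend) on log2(value + 1), 5 DETC against 4 HFSC libraries, and adjusted by the method of Benjamini and Hochberg over 15548 genes. A gene was called at an adjusted p under 0.05. The pseudocount understates the difference of low genes. Genes with 1 to 3 reads at most in each HFSC library are given as ratios of summed reads, with exact binomial intervals that cover counting error only. Genes without an HFSC read are given as bounds that take 3 reads in each HFSC library as the floor. On simulated counts limma recovered 20% of 2-fold and 100% of 4-fold changes.

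The alternatives were edgeR 4.0.16 and DESeq2 1.42.0 on the whole reads, other pseudocounts, filters and scalings, library weights, left-out libraries and a replicate block. The replicate numbers of HFSC and DETC libraries 1 to 3 paired the samples by the rule used. Deviations of same-numbered libraries from their group means correlated at 0.294, 0.196 and 0.361. Libraries with different labels reached 0.402 (DETC 1 with HFSC 3) and 0.255 (DETC a with HFSC 4), so the correlations alone do not settle the pairs. The pairing comes from the numbers in the labels, and HFSC 4, DETC a and DETC b have no partner. Xist also ran alike in the pairs, at 175 and 234, 11898 and 15730, and 5507 and 9045 (HFSC and DETC). The main test did not use the pairing.

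Genes named with values were the markers and sort genes, the 15 largest differences each way among non-overlapping genes with a mean of at least 100, and in each list up to 4 called members each way, called members against the majority, up to 3 members with an interval between -1 and 1, and members at 3 reads or fewer throughout 1 population. Some genes that meet this rule are counted but not reported here. Members and gene lists were chosen with earlier results of these data known. Promoters came from RefSeq (GRCm38.p6), where 10494 of the tested genes had an entry.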

Additional observations from a re-analysis of the deposited data

Results flagged for a closer look

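Named genes at which 1 library lay far from the others of its population are given here as normalized counts, with the range of the other libraries behind each. The distance to the nearest library, as a share of the whole range, was above Dixon's 95% critical value, which chance passes in about 1 of 20 groups. Over all genes that reached a value of 10 in the population, such a library was found at 11.8% of 15348 genes in DETCs, 1342 times in DETC a, and at 9.25% of 14811 genes in HFSCs, 987 times in HFSC 4.

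DETC a was far above the other DETC libraries at the T cell genes Cd2 (3173.5 against 1514.7 to 1580.5), Cd244 (2287.2 against 910.35 to 1069.8), Grap2 (4940.7 against 2063.5 to 2510.1), Ikzf1 (3205.1 against 1666.8 to 2049.8), Il10ra (1675.3 against 656.94 to 914.68), Itga4 (183.85 against 78.06 to 91.52), Lta (46.65 against 14.41 to 22.14), Runx3 (5296.1 against 2133 to 2579.7), Tox (1745.2 against 643.81 to 831.09), Trdc (8014.1 against 3829.6 to 4713.9) and Trdv4 (3867.8 against 2076.5 to 2190.7). So it was at Gpr34 (935.73 against 324.84 to 456.6), Laptm5 (4419.4 against 1978 to 2568.9), P2ry10 (12855 against 5082.6 to 6342.6), Rgs1 (33974 against 11861 to 17474) and Srgn (1232.1 against 692.54 to 758.29), which leukocytes use more widely. The same held at Arap3 (4073.6 against 2058.3 to 2370.1), Axin2 (3095.3 against 1572.4 to 1897.6), Cela1 (620.16 against 272.98 to 338.68), Fgf9 (20.58 against 6.85 to 10.81), Rb1 (1680.8 against 736.76 to 956.93), Smad4 (1040 against 614.23 to 689.37) and Smad7 (3815.7 against 2040.5 to 2270.8). It was far below them at the keratinocyte and bulge genes Cdh3 (60.37 against 242.65 to 303.58), Ltbp2 (8.23 against 74.24 to 94.08) and Perp (1225.2 against 4227.4 to 5360).

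HFSC 4 was far below the other HFSC libraries at Cdh1 (2292.6 against 5172.4 to 5763.9), Fzd5 (98.09 against 342.12 to 388.07), Fzd9 (11.91 against 38.49 to 42.36), Klf4 (1838.5 against 5893.1 to 6317), Krt6a (316 against 1926.4 to 2216.3), Laptm5 (2.8 against 80.18 to 91.19), Rgs1 (2.8 against 241.25 to 267.18), Smad6 (39.94 against 58.8 to 62.33), Srgn (0 against 17.1 to 19.62), Tap1 (297.08 against 553.77 to 576) and Trdv4 (2.1 against 19.24 to 21.93). The named genes at which this library stood far below thus included leukocyte and keratinocyte genes. Over all genes, however, it was the high library at 673 of the 987 at which it stood apart.

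The other libraries stood apart at few named genes. HFSC 1 was high at Mcm6 (371.69 against 307.89 to 316), HFSC 3 was high at Bmpr2 (1947.8 against 1513.3 to 1545.7), and HFSC 2 was high at Sfrp1 (4050 against 881.89 to 1252.9) and low at Mitf (452.9 against 720.29 to 762.32). DETC 3 was low at Cdh5 (3.16 against 12.2 to 13.21) and DETC b at Thy1 (1162.6 against 1968.8 to 2260.2), a gene of the sort.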

How the results depend on the processing

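No gene called in the main fit was called in the opposite direction under any alternative, and no named call changed its sign. Both counts stayed within 1.5 times under all alternatives except 1. With only the libraries whose column names use letters (2 HFSC, 2 DETC), 1348 genes were higher in DETCs and 492 in HFSCs, and 60 of the 163 named calls were lost, with fewer libraries in the fit. With any 1 library left out, the counts were 2821 to 3612 toward DETCs and 1645 to 2453 toward HFSCs, lowest without HFSC 1 and HFSC 3. Over the other alternatives 150 to 163 of the named calls held, or all 122 that passed a mean of at least 50. edgeR gave 3088 and 2619 calls, DESeq2 3478 and 2962. With the replicate block 3999 genes were higher in DETCs and 3396 in HFSCs. The block rests on 3 pairs, and DETC 1 correlated more with HFSC 3 (0.402) than with HFSC 1. It called 1 cytokine receptor gene, 2 homing genes, 2 cell cycle inhibitors and 2 sebaceous genes higher in HFSCs and 1 junction gene higher in DETCs. Apart from the genes given with the block above, it changed no other named call. Leaving out HFSC 4 and DETC a together was chosen after seeing the data. Cd68, Col3a1, Itga9, Tyms and Znrf3 lost their calls there (adjusted p 0.0509 to 0.143). In the simulation 2-fold changes were often not recovered. It changed few genes and gave every gene and library the same spread, unlike the data. How often differences of this size were detectable with these 9 libraries was therefore not tested.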
